A study of Mus musculus with 13 samples.

Results

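Thymic eosinophils of Rag-KO mice given an anti-CD3 antibody were set against the eosinophils of 2 peripheral organs, in 8 of the 13 libraries of the series. Rag-KO + anti-CD3 (n = 2) are eosinophils from the thymus of Rag2-/- mice taken on day 10 after 200 µg of anti-CD3ε antibody was given into the peritoneum. They were compared with the eosinophils of untreated wild-type (WT) C57BL/6N mice from the spleen (WT spleen, n = 3) and from the lung (WT lung, n = 3). Mice were 8 to 10 weeks old. The cells were sorted by flow cytometry as CD11b+ Siglec-F+ cells, and thymus and lung, unlike spleen, were digested with enzymes before sorting. A gene was counted as different only where it passed the test against the mean of the 2 organs and had the same direction against spleen and against lung. Autosomal genes alone were counted. Organ (thymus or periphery), genotype and antibody all differ between the groups and cannot be told apart in this comparison. The sources do not say whether the libraries of a group came from separate mice, so p-values measure the spread between these libraries, which may be technical.

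Eosinophils are granulocytes that mature in the bone marrow under interleukin-5 and reach tissues through the eotaxin receptor CCR3. In the thymus they lie among developing T cells. Mice without Rag1 or Rag2 cannot rearrange antigen receptor genes, so that their thymocytes stop early, and antibody against CD3 drives these cells past the block without a rearranged receptor. Lymphocytes leave tissues along gradients of sphingosine-1-phosphate, while resident cells in mucosal tissues often carry integrins such as CD11c and CD103.

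Values are RPKM, read counts scaled to transcript length and to the mapped total of the library, and depth was close between groups, at 5259827 and 5713043 reads in Rag-KO + anti-CD3 and 4765122 to 6022545 in the peripheral libraries. Listed values of 0 were kept as 0 RPKM, and a 0 does not show that a transcript was absent. WT spleen 3 stood apart, with 22.0% of its RPKM in mitochondrial genes, against 2.98 to 6.02% in the other 7 libraries. Its S100a8, a neutrophil alarmin, was at 18344 RPKM, against 12.1 to 404 in the others. WT lung 3 stood apart in inflammatory genes such as Il1b, described further on. Y-linked genes, which the comparison leaves out, also moved with the groups. Ddx3y was at 15.9 and 15.6 RPKM and Eif2s3y at 23.6 and 19.2 RPKM in Rag-KO + anti-CD3, against 0 to 0.0409 RPKM and 0 RPKM in the 6 peripheral libraries. The study's methods speak of mice matched for sex, but the labels give none for these libraries, and the sex of the mice and the group cannot be told apart either.

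Of 9451 autosomal genes tested, 146 rose in Rag-KO + anti-CD3 relative to the peripheral eosinophils (1.54%) and 54 fell (0.571%). The counts of called genes in the lists below stand beside these shares. Where few members of a list were called, nothing is read about the list as a whole. The call needed an adjusted p under 0.05 in limma and a change of more than 1 in either direction on the log2(RPKM + 1) scale, which understates the change of low genes. Both Rag-KO + anti-CD3 libraries were above all 6 peripheral libraries for 137 of the 146 genes and below all 6 for 49 of the 54. The same held for 17.4% and 4.73% of all genes tested. Against each organ on its own, 61 genes rose and 24 fell in both comparisons. The median log2 fold change over all autosomal genes tested was 0.20, against 0.23 for the spleen comparison alone and 0.17 for the lung comparison alone, and the changes below stand beside that shift. Under quantile normalization, which removes it, 128 genes rose and 106 fell. Another 8 genes passed the test against the mean of the organs but differed in sign between them or were at no difference from spleen, and were not counted. Leaving out WT spleen 3 gave 233 genes higher and 113 lower. Without WT lung 3 the counts were 176 and 66, without WT lung 1 they were 81 and 33, and without WT lung 2 they were 91 and 45. With 1 Rag-KO + anti-CD3 library the counts were far lower, at 3 and 3 without Rag-KO + anti-CD3 1 and 17 and 4 without Rag-KO + anti-CD3 2. In those fits the remaining library was assumed to vary like the other groups.

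**Figure D1:**
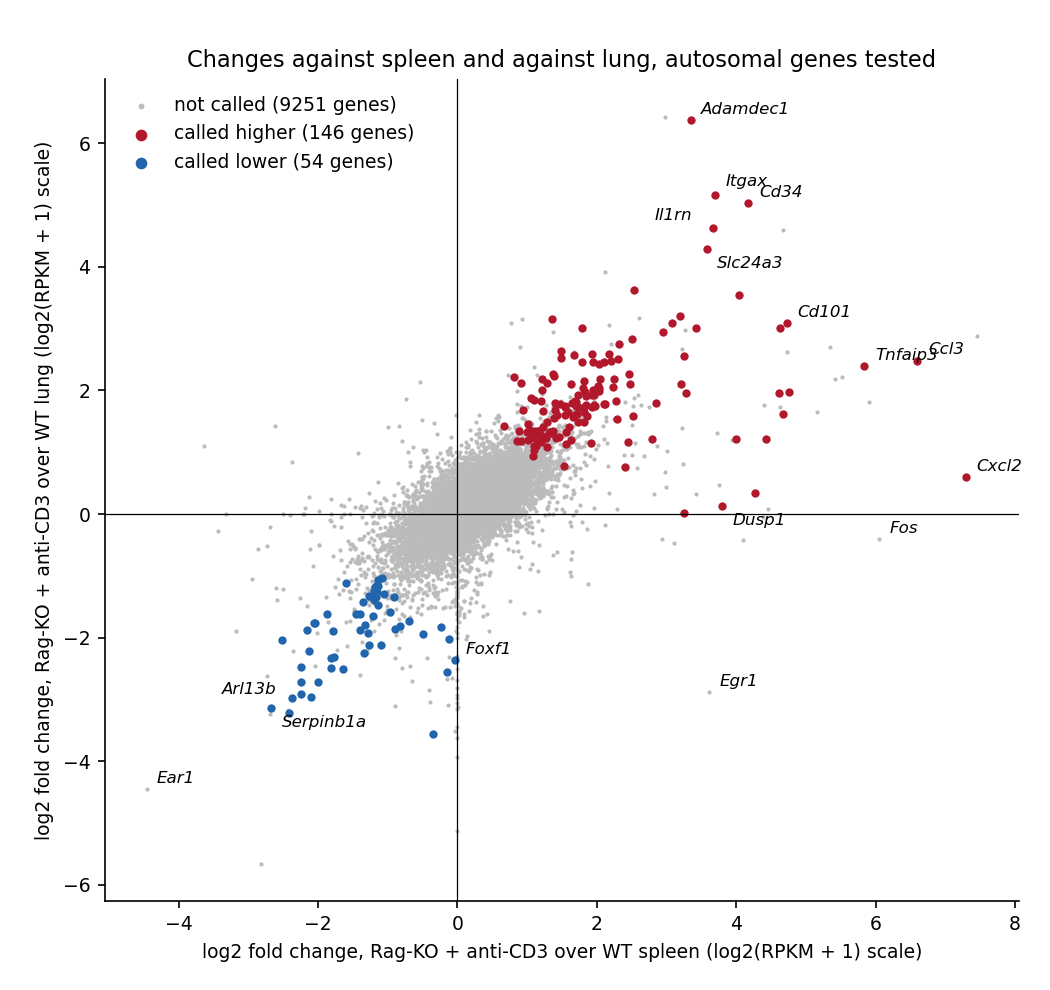
Log2 fold change of Rag-KO + anti-CD3 over WT spleen (horizontal axis) and over WT lung (vertical axis) for each autosomal gene tested, both on the log2(RPKM + 1) scale. Red points are the 146 genes called higher and blue points the 54 called lower. Most lie near the diagonal, while Cxcl2 and Dusp1 are far from spleen and near lung, and the uncalled Fos and Egr1 have opposite signs against the 2 organs.

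Cd34, Itgax and Cd101, which encode surface proteins, were among the genes that rose. Cd34, a sialomucin of progenitors and of some mature leukocytes, was at 179.7 and 155 RPKM in Rag-KO + anti-CD3, against 20.7, 8.84 and 2.73 RPKM in WT spleen and 3.91, 3.21 and 5.5 RPKM in WT lung. All 6 peripheral libraries were below a level of 21 RPKM, and the mean differed 22.3-fold, with a log2 fold change of 4.60 (standard error 0.58, adjusted p = 0.00232). Itgax, which encodes the integrin chain CD11c, was at 196 and 194 RPKM in Rag-KO + anti-CD3, against 44.2, 24.8 and 1.94 RPKM in WT spleen and 5.23, 2.65 and 6.06 RPKM in WT lung. The spleen libraries were spread widely here, and the log2 fold change was 4.43 (standard error 0.83, adjusted p = 0.0183), at 3.70 against spleen alone (adjusted p = 0.086) and 5.17 against lung alone (adjusted p = 0.0118). Cd101, an immunoglobulin-family receptor, was at 45 and 38.3 RPKM in Rag-KO + anti-CD3, against 0.925, 1.15 and 0 RPKM in WT spleen and 4.42, 4.93 and 2.84 RPKM in WT lung. Its log2 fold change of 3.91 (standard error 0.40, adjusted p = 0.000626) kept its call under each of the 23 alternatives run on single genes. Of 16 integrin chains tested, 3 rose and none fell, and their median log2 fold change was 0.21. Among all genes tested 1.54% rose and 0.571% fell, with a median of 0.20. Apart from Itgax these were Itgb5, a chain of the vitronectin receptor, at 12.4 and 10.8 RPKM in Rag-KO + anti-CD3 against 0 to 5.96 in the 6 peripheral libraries, and Itgae, which encodes CD103. Itgae was low, at 4.45 and 2.28 RPKM in Rag-KO + anti-CD3 and at most 0.089 RPKM in the peripheral libraries (adjusted p = 0.00798).

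**Figure D2:**
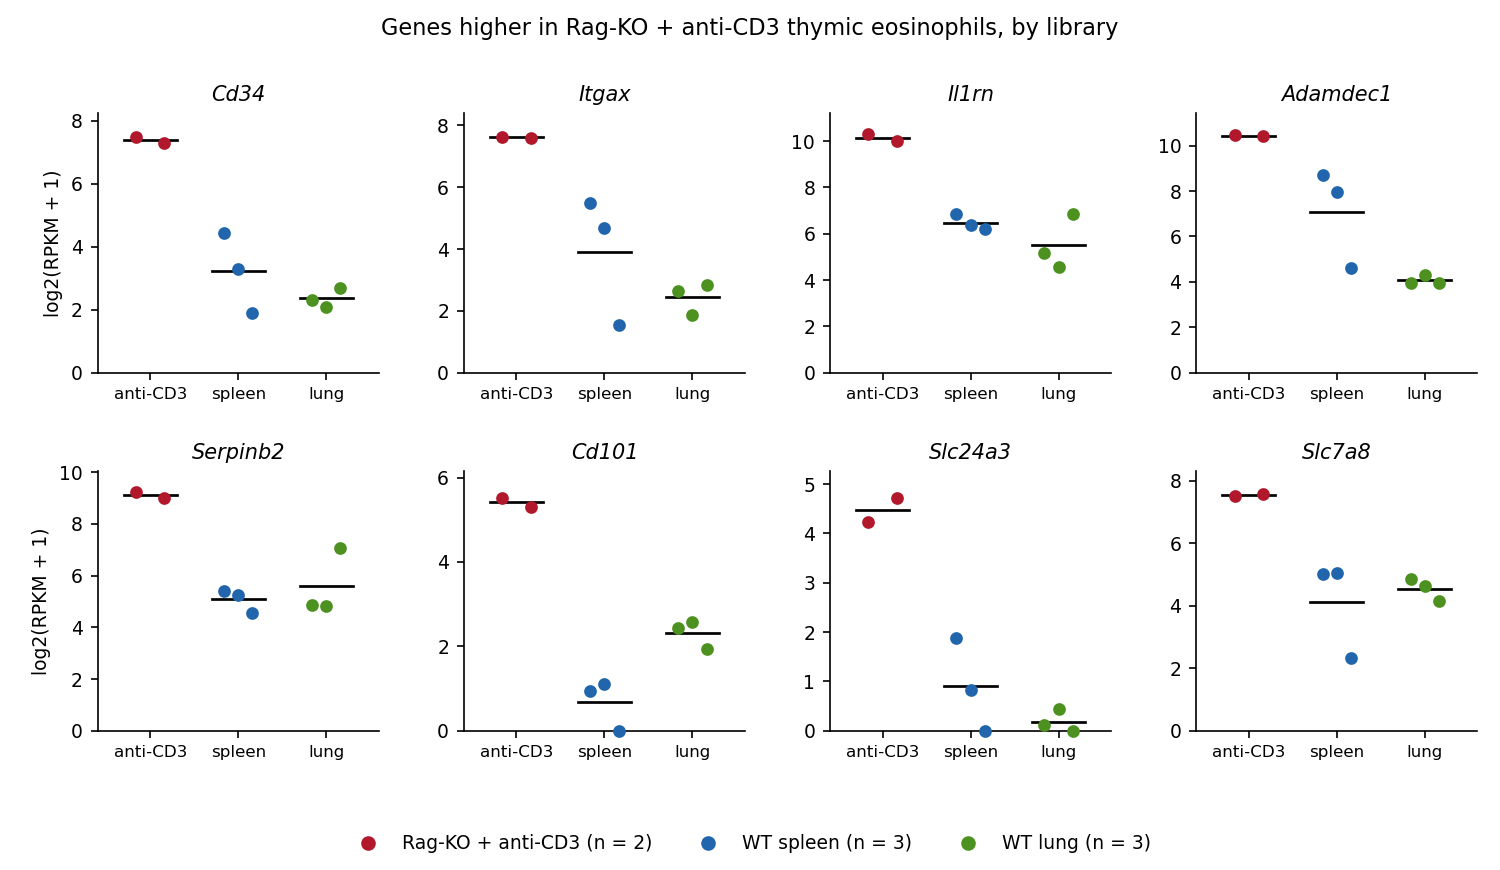
Log2(RPKM + 1) of 8 genes that rose, with a point for each library and a line at the group mean, for Rag-KO + anti-CD3 (n = 2), WT spleen (n = 3) and WT lung (n = 3). In each panel both Rag-KO + anti-CD3 libraries lie above all 6 peripheral libraries, and WT lung 3 is the highest peripheral library for Serpinb2.

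The promoters of Itgax, of Il1rn and of Serpinb2, which are among the top 5 genes by the smaller of their changes against spleen and lung, are shown because they held a searched motif. Sequences are from RefSeq, build GRCm38.p6, 250 bases before to 50 bases after an annotated start, on the gene's strand. Capitals mark 2 motifs, AGATAA, which factors of the GATA family bind, and TGAGTCA, which AP-1 binds. Both were searched on both strands, as was GAGGAAGT, which PU.1 binds, and the marked sites do not overlap.
Itgax, chr7:128129300-128129599, plus strand: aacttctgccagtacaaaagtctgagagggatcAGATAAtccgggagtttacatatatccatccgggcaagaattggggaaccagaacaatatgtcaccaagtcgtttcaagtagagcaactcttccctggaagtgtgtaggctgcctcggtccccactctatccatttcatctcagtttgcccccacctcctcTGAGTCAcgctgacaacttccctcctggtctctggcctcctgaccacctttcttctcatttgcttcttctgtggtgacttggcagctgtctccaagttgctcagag
Il1rn, chr2:24336610-24336909, plus strand: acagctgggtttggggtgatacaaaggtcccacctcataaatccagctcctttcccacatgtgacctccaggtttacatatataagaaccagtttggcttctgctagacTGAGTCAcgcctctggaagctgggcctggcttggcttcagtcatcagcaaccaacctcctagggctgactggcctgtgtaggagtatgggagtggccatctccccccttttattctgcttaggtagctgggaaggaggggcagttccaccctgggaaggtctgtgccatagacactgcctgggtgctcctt
Serpinb2, chr1:107511260-107511559, plus strand: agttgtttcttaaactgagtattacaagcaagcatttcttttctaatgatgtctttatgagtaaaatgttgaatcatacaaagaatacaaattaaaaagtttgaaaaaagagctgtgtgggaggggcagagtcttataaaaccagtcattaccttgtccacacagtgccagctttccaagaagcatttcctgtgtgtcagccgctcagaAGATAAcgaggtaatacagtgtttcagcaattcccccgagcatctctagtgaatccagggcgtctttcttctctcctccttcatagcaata
In Itgax AGATAA begins at position -217 and TGAGTCA at -56 from the start, in Il1rn TGAGTCA begins at -141 and in Serpinb2 AGATAA at -41. The other annotated starts of Il1rn and of Serpinb2, not shown, held none of the searched motifs. These are descriptions of the letters only. A promoter was found for 119 of the 146 genes that rose and 7574 of the 9451 tested. It was found for 43 of the 54 that fell (79.6%), which is below the minimum of 80%, so that a search over them is void. For the record, AGATAA was present in 6 of these 43 (14.0%), and TGAGTCA and GAGGAAGT in 2 each (4.65%), and nothing is read from these shares. AGATAA was present for 10.1% of the genes that rose (12 genes) and 7.45% of all genes tested. TGAGTCA was present for 7.56% of the genes that rose (9 genes) and 4.30% of all. GAGGAAGT was present for 5.88% of the genes that rose (7 genes) and 4.33% of all. Genes with several starts were counted once, where any start held the motif.

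Among the interleukin-1 family, Il1rn rose and Il18rap fell, and the other 9 genes tested were not called. The shares over all genes tested were 1.54% higher and 0.571% lower. Il1rn, the secreted antagonist of the interleukin-1 receptor, was at 1249 and 1016 RPKM in Rag-KO + anti-CD3, against 116, 80.9 and 72.3 RPKM in WT spleen and 34.4, 22.4 and 113 RPKM in WT lung. The lowest Rag-KO + anti-CD3 library was above all 6 peripheral libraries, with a log2 fold change of 4.15 (standard error 0.53, adjusted p = 0.00232). Il1b, the agonist cytokine, was at 1072 and 769.6 RPKM in Rag-KO + anti-CD3, against 63.3, 32.7 and 17.6 RPKM in WT spleen and 23.5, 104 and 1251 RPKM in WT lung. WT lung 3 was above both Rag-KO + anti-CD3 libraries, and Il1b was not called (log2 fold change 3.67, adjusted p = 0.127). Il18rap, the accessory chain of the interleukin-18 receptor, was at 1.21 and 1.43 RPKM in Rag-KO + anti-CD3, against 4.16 to 8.29 RPKM in the 6 peripheral libraries (log2 fold change -1.61, adjusted p = 0.0125).

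Proteases and their inhibitors moved in both directions. Adamdec1, a secreted metalloprotease of the ADAM family, was at 1409.8 and 1360.0 RPKM in Rag-KO + anti-CD3, against 420.2, 244 and 23.4 RPKM in WT spleen and 14.3, 18.8 and 14.5 RPKM in WT lung. The lung libraries were uniformly low and the spleen libraries varied, and the log2 fold change was 4.86 (adjusted p = 0.0282), with 3.35 against spleen alone (adjusted p = 0.23). Its call was lost, among other settings, without WT lung 1 or WT lung 2. Serpinb2, the plasminogen activator inhibitor 2, was at 599 and 513 RPKM in Rag-KO + anti-CD3, against 41.8, 37.5 and 22.6 RPKM in WT spleen and 28, 27.4 and 131 RPKM in WT lung (a log2 fold change of 3.79, standard error 0.60, adjusted p = 0.00808). Serpinb1a, an inhibitor of neutrophil serine proteases, went the other way. It was at 22.6 and 22.2 RPKM in Rag-KO + anti-CD3, against 161, 170.0 and 119 RPKM in WT spleen and 198, 230.1 and 191 RPKM in WT lung. Its log2 fold change of -2.91 (standard error 0.23, adjusted p = 0.000345) kept its call under each of the 23 alternatives run on single genes. Of the 18 ADAM, serpin and plasminogen genes tested, 3 rose, 1 fell and 14 were not called, with a median of 0.26. Among all genes tested 1.54% rose and 0.571% fell, with a median of 0.20. The third that rose was Adam28, another ADAM protease, at 2.77 and 1.26 RPKM against at most 0.223 RPKM.

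Slc24a3, Slc7a8, Slc3a2 and Slc7a11, which encode transporters or their chains, rose. Slc24a3, a potassium-dependent sodium and calcium exchanger, was at 17.7 and 25.5 RPKM in Rag-KO + anti-CD3, against 2.66, 0.779 and 0 RPKM in WT spleen and 0.0855, 0.36 and 0 RPKM in WT lung. It was near 0 in 5 of the 6 peripheral libraries (log2 fold change 3.93, standard error 0.41, adjusted p = 0.000626). Slc7a8, which encodes the amino acid transporter LAT2, was at 182 and 189 RPKM in Rag-KO + anti-CD3, against 31.1, 32 and 4.01 RPKM in WT spleen and 27.8, 23.7 and 16.8 RPKM in WT lung (a log2 fold change of 3.21, adjusted p = 0.0263). Slc3a2, the heavy chain that carries LAT2 and the cystine transporter to the membrane, was at 104 and 100.3 RPKM in Rag-KO + anti-CD3 and 17.4 to 33.3 RPKM in the peripheral libraries (adjusted p = 0.00477). Slc7a11, the cystine transporter chain itself, was at 21.1 and 19.5 RPKM in Rag-KO + anti-CD3 and 6.88 to 10.2 RPKM in the peripheral libraries (adjusted p = 0.023). Of the 19 ion and amino acid transporters tested, 3 rose and none fell, and the median was 0.26, against 1.54% higher and a median of 0.20 over all genes. Slc7a8 is not in that list.

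Of 25 lysosomal genes tested, 2 rose and none fell, with a median of 0.44. For this list and those below, the shares over all genes were 1.54% higher and 0.571% lower, with a median of 0.20. Acp5, tartrate-resistant acid phosphatase, was at 119 and 83.3 RPKM in Rag-KO + anti-CD3, against 39.8, 26.9 and 3.68 RPKM in WT spleen and 11.2, 5.12 and 6.3 RPKM in WT lung. Grn, the progranulin gene, was at 366 and 314 RPKM in Rag-KO + anti-CD3, against 43.1 to 135 RPKM in the 6 peripheral libraries. The adjusted p was 0.0285 for Acp5 and 0.0218 for Grn. In lipid handling, Abca1, the cholesterol exporter, was at 5.56 and 7.3 RPKM in Rag-KO + anti-CD3 and at 0.506 to 1.33 RPKM in the peripheral libraries. Scd2, a fatty acid desaturase, was at 15.2 and 19.1 RPKM and 1.47 to 7.7 RPKM in the same order, and these were the 2 of 19 cholesterol and LXR target genes that rose (median 0.40). Ltc4s, the leukotriene C4 synthase, was at 4.65 and 6.9 RPKM in Rag-KO + anti-CD3, against 0 to 2.12 RPKM in the peripheral libraries (adjusted p = 0.0235), and was the only called gene of 17 lipid mediator genes tested. Alox5ap, which presents arachidonic acid to the leukotriene pathway, was at 704 and 687 RPKM in Rag-KO + anti-CD3, against 708 to 1064 RPKM, and was not called (adjusted p = 0.619). B3gnt7, a glycan-extending transferase, Osgin2, an oxidative stress-induced growth inhibitor family gene, and Plk3, a stress-responsive kinase, also rose. They averaged 12.6 ± 4.16, 24.7 ± 1.88 and 62.5 ± 9.94 RPKM in Rag-KO + anti-CD3, against 1.39 ± 0.74, 4.11 ± 1.81 and 6.98 ± 11.7 RPKM in the peripheral libraries. For Plk3, WT lung 3 alone was at 30.8 RPKM and no other peripheral library exceeded 3.6 RPKM.

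Inhibitory receptors were higher in part. Siglece, a sialic acid-binding receptor with an inhibitory tail, was at 267 and 283 RPKM in Rag-KO + anti-CD3, against 124, 90.2 and 41.3 RPKM in WT spleen and 76.2, 58.6 and 50.5 RPKM in WT lung. Cd300lf, an inhibitory receptor of myeloid cells, was at 332 and 286 RPKM in Rag-KO + anti-CD3, against 33.4 to 119 RPKM in the 6 peripheral libraries. Cd33, a further sialic acid-binding lectin, was at 15.5 and 12 RPKM in Rag-KO + anti-CD3, against 0.939 to 2.92 RPKM. These were the 3 of 21 inhibitory and paired receptors that rose, at log2 fold changes of 1.99, 1.94 and 2.34 (adjusted p = 0.0215, 0.0301 and 0.0198), and none fell. The list's median was 0.80, and 12 of its 21 tested members were above all 6 peripheral libraries, as were 17.4% of all genes tested. Pilra, a paired inhibitory receptor and among these 12, was at 133 and 111 RPKM against 5.39 to 71.8 RPKM and was not called (adjusted p = 0.0624). Il10ra, a chain of the interleukin-10 receptor, was at 30.1 and 20.1 RPKM in Rag-KO + anti-CD3, against 2.2, 2.04 and 1.02 RPKM in WT spleen and 1.34, 0.938 and 17 RPKM in WT lung (adjusted p = 0.0396). It was the only called gene of 21 cytokine receptors tested, against 1.54% of all genes called higher. Its call was lost under 12 of the 23 alternatives run on single genes.

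Cish and Smad7, inhibitors of signalling, rose. Cish, a target and inhibitor of STAT5 signalling, was at 93.7 and 83.1 RPKM in Rag-KO + anti-CD3, against 20.9, 18.4 and 19.6 RPKM in WT spleen and 18.5, 17.9 and 46.2 RPKM in WT lung. Smad7, the inhibitory SMAD of TGF-beta signalling, was at 7.16 and 7.12 RPKM in Rag-KO + anti-CD3, against 0.647 to 1.96 RPKM in the 6 peripheral libraries. Their log2 fold changes were 1.95 and 1.83 (adjusted p = 0.0125 and 0.00678), and each was the only called gene of its list, of 19 STAT and SOCS genes (median 0.42) and of 13 TGF-beta signalling genes (median 0.60). Of 10 MAPK feedback genes, 3 rose, and Spred2 and Dusp16 were above all 6 peripheral libraries, at 2.22 and 2.35 RPKM and 5.33 and 5.11 RPKM in Rag-KO + anti-CD3, against 0.187 to 0.556 RPKM and 0.31 to 2.6 RPKM. Bcl2a1a, an anti-apoptotic BCL-2 family gene, was at 201 and 163 RPKM in Rag-KO + anti-CD3, against 18.2 to 77.3 RPKM in the peripheral libraries (adjusted p = 0.0335). Its close copy Bcl2a1d, which the study names, was at 151 and 95.7 RPKM in Rag-KO + anti-CD3, against 8.33, 8.85 and 23.1 RPKM in WT spleen and 6.42, 8.03 and 101 RPKM in WT lung. WT lung 3 lay between the Rag-KO + anti-CD3 libraries and Bcl2a1d was not called (adjusted p = 0.11), but was in the fit blocked by replicate (adjusted p = 0.00388). Reads could be split between these near-identical copies, so their separate values are uncertain.

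Early response and inflammatory genes differed mainly from spleen. Fos, a subunit of AP-1, was at 2193 and 2137 RPKM in Rag-KO + anti-CD3, against 25.6, 38.1 and 32.6 RPKM in WT spleen and 2999, 3881 and 2017 RPKM in WT lung. Its log2 fold change was 6.05 against spleen (adjusted p = 4.65e-06) and -0.40 against lung (adjusted p = 0.709), so it was not counted. Dusp1, a phosphatase of MAP kinases, was at 3438 and 3793 RPKM in Rag-KO + anti-CD3, against 187, 355 and 258 RPKM in WT spleen and 4169, 4150.3 and 2075 RPKM in WT lung. Dusp1, Junb (AP-1) and Zfp36, which destabilises cytokine mRNA, met the rule with log2 fold changes of 0.13, 0.02 and 0.34 against lung, none of which passed the test on its own. Egr1, another early transcription factor, was at 45.8 and 28.1 RPKM in Rag-KO + anti-CD3, against 3.36, 3.07 and 0.562 RPKM in WT spleen and 272, 529 and 139 RPKM in WT lung. It was above spleen by 3.61 (adjusted p = 0.00888) and below lung with a log2 fold change of -2.88 (adjusted p = 0.016). Of 21 immediate early genes tested, 3 rose (Jun, Junb and Ier3), and the list's median was 2.82 against spleen and 0.02 against lung. Over all genes tested, 1.54% rose, and the medians were 0.23 and 0.17. Thymus and lung were digested and spleen was not, and the part of this step in the difference was not tested.

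Of 15 chemokine ligand genes tested, 2 rose (Ccl3 and Cxcl2), and of 7 chemokine receptor genes tested, 2 rose (Ccr1 and Cxcr2). The share of all genes tested that rose was 1.54%. Ccl3, a ligand of CCR1, was at 253 and 303 RPKM in Rag-KO + anti-CD3, against 1.12, 2.82 and 1.92 RPKM in WT spleen and 16.7, 43.6 and 155 RPKM in WT lung. Both Rag-KO + anti-CD3 libraries were above all others, and the log2 fold change was 4.54 (adjusted p = 0.0133), with an adjusted p of 0.00464 against spleen alone and 0.225 against lung alone. Cxcl2, a neutrophil attractant, was at 224 and 174 RPKM in Rag-KO + anti-CD3, against 0, 0 and 1.02 RPKM in WT spleen and 27.7, 104 and 745 RPKM in WT lung. WT lung 3 was above both Rag-KO + anti-CD3 libraries for Cxcl2, which lost its call without either of the other lung libraries or without WT spleen 1 or 2. Tnfaip3, which encodes the NF-kB inhibitor A20, was at 579 and 674 RPKM in Rag-KO + anti-CD3, against 16, 15.9 and 3.52 RPKM in WT spleen and 35.7, 77.2 and 586 RPKM in WT lung, with WT lung 3 between both Rag-KO + anti-CD3 libraries (adjusted p = 0.0367). Tnfaip3 was the only called gene of 18 NF-kB subunits and feedback genes, beside the 1.54% of all genes. Among chemokine receptors, Ccr1, a receptor for Ccl3, was at 181 and 159.8 RPKM in Rag-KO + anti-CD3, against 38.9 to 82.5 RPKM in the 6 peripheral libraries (log2 fold change 1.64, adjusted p = 0.0257). Cxcr2, a receptor for Cxcl2, was at 18.1 and 11.1 RPKM in Rag-KO + anti-CD3, against 1.74, 1.14 and 3.03 RPKM in WT spleen and 5.91, 9.21 and 9.3 RPKM in WT lung (adjusted p = 0.0353). Cxcr4, the receptor for CXCL12, was at 245 and 329.6 RPKM in Rag-KO + anti-CD3, against 34, 29.4 and 55.8 RPKM in WT spleen and 169, 121 and 114 RPKM in WT lung. Its groups did not overlap, but it missed the threshold (log2 fold change 1.98, adjusted p = 0.0795), with an adjusted p of 0.031 against spleen and 0.471 against lung. Ccl6 and Ccl9, chemokines of the CCR1 ligand group in mice, were at 4605 and 4738 RPKM and 84.8 and 82.9 RPKM in Rag-KO + anti-CD3, against 8428 to 15166 RPKM and 149 to 253 RPKM in the peripheral libraries, and were not called (adjusted p = 0.0792 and 0.286).

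**Figure D3:**
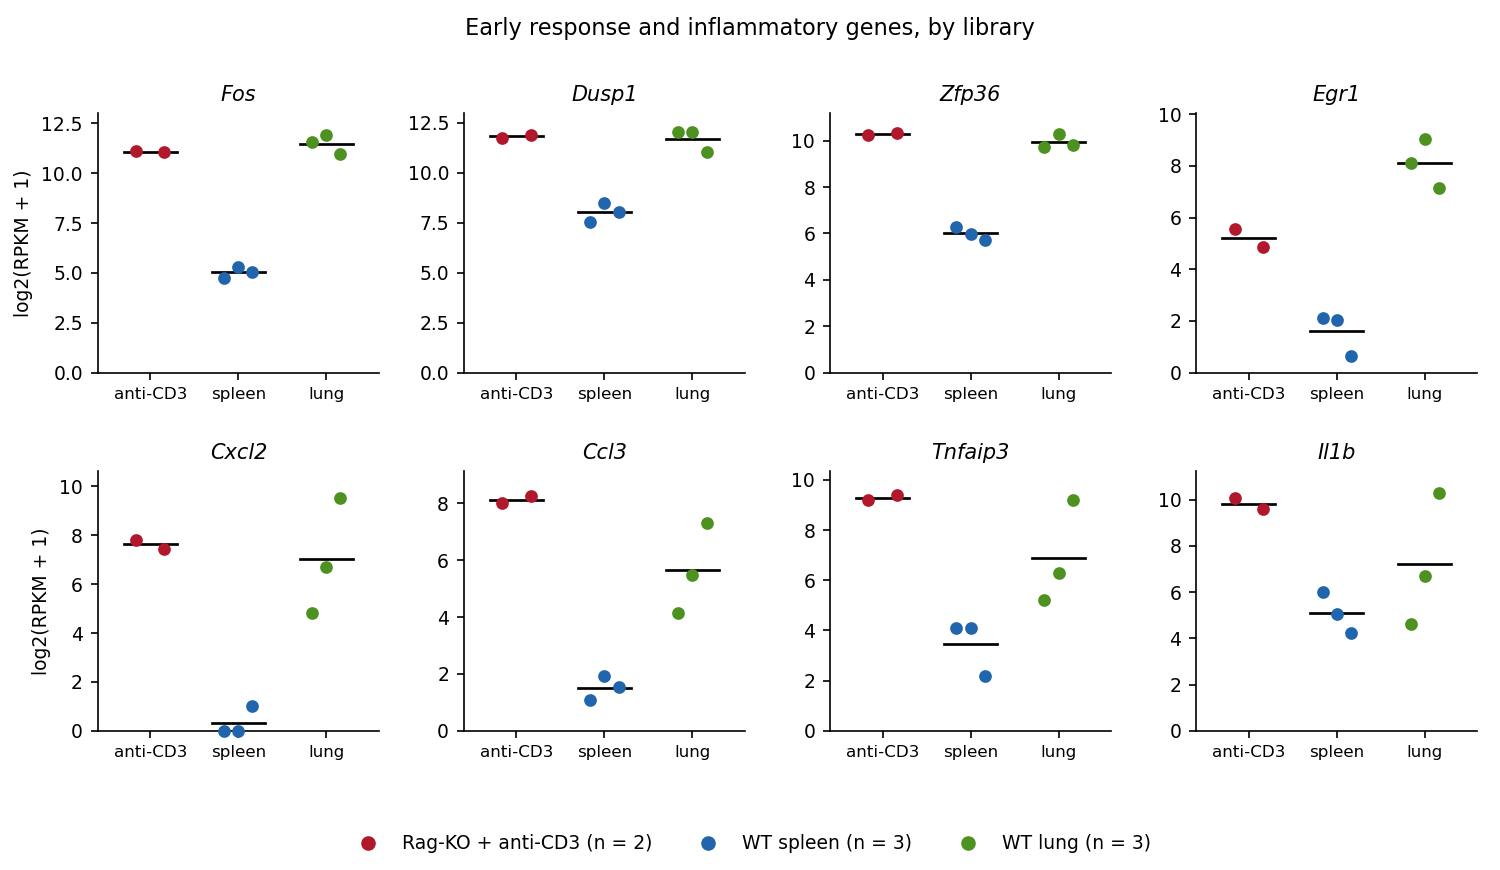
Log2(RPKM + 1) of 8 early response and inflammatory genes, with a point for each library and a line at the group mean, for Rag-KO + anti-CD3 (n = 2), WT spleen (n = 3) and WT lung (n = 3). Rag-KO + anti-CD3 lies far above spleen in each panel and near the lung libraries for Fos, Dusp1 and Zfp36, while the highest lung point for Cxcl2, Ccl3, Tnfaip3 and Il1b is WT lung 3.

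The genes that fell included receptors for trafficking. S1pr1, the sphingosine-1-phosphate receptor that guides exit from tissue in lymphocytes, was low throughout, at 1.44 and 0.345 RPKM (23 and 6 reads) in Rag-KO + anti-CD3, against 2.75, 2.83 and 4.75 RPKM in WT spleen and 6.88, 5.33 and 8.69 RPKM in WT lung (a log2 fold change of -1.69, adjusted p = 0.0179). S1pr4, a related receptor of leukocytes, was at 5.82 and 4.7 RPKM in Rag-KO + anti-CD3, against 20.9, 21.9 and 22.9 RPKM in WT spleen and 27.2, 24.4 and 8.55 RPKM in WT lung (a log2 fold change of -1.74, adjusted p = 0.0385). Its call was lost, among other settings, without WT spleen 1 or 2 or without WT lung 1 or 2, at an adjusted p of up to 0.418 over all alternatives. Klf3, a repressor of the Krüppel-like family, was at 26.9 and 31.5 RPKM in Rag-KO + anti-CD3, against 82.3, 89.6 and 64.5 RPKM in WT spleen and 95.5, 96.3 and 82.9 RPKM in WT lung (a log2 fold change of -1.51, standard error 0.21, adjusted p = 0.00477). Klf2, which activates S1pr1 in T cells, was at 168 and 85.3 RPKM in Rag-KO + anti-CD3, against 423, 385 and 296 RPKM in WT spleen and 856, 900.2 and 83.8 RPKM in WT lung. WT lung 3 was the lowest library, just below Rag-KO + anti-CD3 2, and Klf2 was not called (adjusted p = 0.315).

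**Figure D4:**
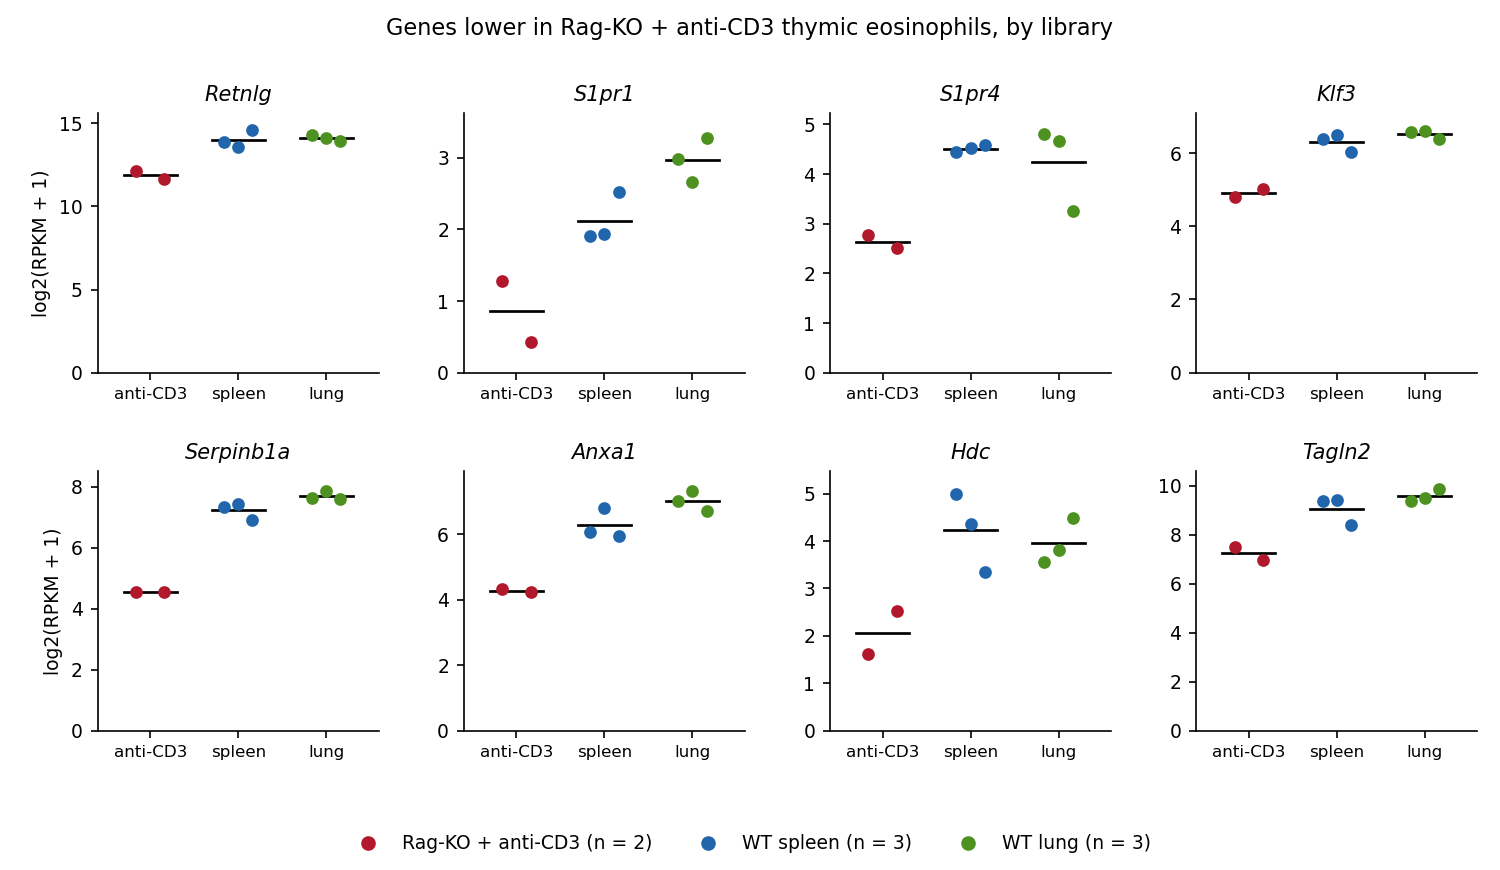
Log2(RPKM + 1) of 8 genes that fell, with a point for each library and a line at the group mean, for Rag-KO + anti-CD3 (n = 2), WT spleen (n = 3) and WT lung (n = 3). Both Rag-KO + anti-CD3 libraries lie below all 6 peripheral libraries in each panel, and S1pr1 has the lowest levels.

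Anxa1, S100a6, S100a10, Tagln2, Pdlim1, Retnlg, Hdc and Sgk1 fell. Anxa1, the anti-inflammatory annexin, was at 18.8 and 18 RPKM in Rag-KO + anti-CD3, against 66.4, 111 and 60.8 RPKM in WT spleen and 127, 158 and 102 RPKM in WT lung (a log2 fold change of -2.36, adjusted p = 0.0101). S100a6 and S100a10, small calcium-binding family proteins, averaged 63.8 ± 8.72 and 343 ± 6.07 RPKM in Rag-KO + anti-CD3, against 247 ± 59.8 and 826 ± 87.2 RPKM in the peripheral libraries. Tagln2 and Pdlim1, which bind actin or its partners, averaged 154 ± 38.2 and 36.1 ± 4.19 RPKM in Rag-KO + anti-CD3, against 668 ± 190.3 and 158 ± 45.8 RPKM. The log2 fold changes of these 4 genes ran from -1.26 for S100a10 to -2.08 for Tagln2. Retnlg, a resistin-like gene abundant in neutrophils, was at 4529.9 and 3159 RPKM in Rag-KO + anti-CD3, against 15189, 12223 and 24507 RPKM in WT spleen and 20005, 17479 and 15613 RPKM in WT lung (a log2 fold change of -2.17, adjusted p = 0.00696). The sum of the 13 neutrophil markers, which holds Retnlg, was 3363 to 4600.1 RPKM in Rag-KO + anti-CD3, 12259.5 to 51217 RPKM in WT spleen and 16401 to 20408 RPKM in WT lung. Of these markers 1 rose (Cxcr2) and 1 fell (Retnlg), and their part in the results was not tested. Hdc, which makes histamine, was at 2.07 and 4.76 RPKM in Rag-KO + anti-CD3, against 30.8, 19.4 and 9.12 RPKM in WT spleen and 10.7, 13 and 21.4 RPKM in WT lung (adjusted p = 0.0345), and its call was lost, among other settings, without WT spleen 1 or 2 or WT lung 1 or 2. Hdc is also the only called gene of the 5 mast cell and basophil markers tested, whose sum was 6.54 to 10.1 RPKM in Rag-KO + anti-CD3, 14.4 to 39.2 RPKM in WT spleen and 21.5 to 34.1 RPKM in WT lung. Sgk1, a kinase induced by glucocorticoids, was at 13.7 and 17.7 RPKM in Rag-KO + anti-CD3, against 39.5 to 129.6 RPKM in the 6 peripheral libraries (adjusted p = 0.0125).

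Some genes that fell are known outside leukocyte biology. Arl13b, a small GTPase of the primary cilium, was at 1.72 and 3.22 RPKM in Rag-KO + anti-CD3, against 17.9, 18.6 and 13.5 RPKM in WT spleen and 19.6, 26.3 and 33.2 RPKM in WT lung. Its log2 fold change of -2.67 (standard error 0.27, adjusted p = 0.000626) kept its call under each of the 23 alternatives run on single genes. Enkur, which encodes a calmodulin-binding protein of sperm and cilia, was at 1.11 and 0 RPKM in Rag-KO + anti-CD3, against 7.42, 13.4 and 2.8 RPKM in WT spleen and 10.4, 22.8 and 8.04 RPKM in WT lung (adjusted p = 0.0322). Sgms2, a sphingomyelin synthase, and Pbld1 averaged 2.59 ± 0.542 and 2.09 ± 0.848 RPKM in Rag-KO + anti-CD3, against 15.6 ± 4.92 and 17.9 ± 7.3 RPKM in the peripheral libraries. Emb, which encodes embigin, an adhesion protein and partner of monocarboxylate transporters, was at 0.769 and 0.871 RPKM in Rag-KO + anti-CD3, against 2.61 to 9.64 RPKM (adjusted p = 0.0416).

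None of the 17 eosinophil identity genes tested was called in either direction, and their median log2 fold change was 0.79. At an unadjusted p under 0.05, with the same limits on fold change and direction, 3 of them were higher and 3 lower. Of all 9451 genes tested, 413 were higher and 155 lower at these settings. Ccr3 was at 710.1 and 634 RPKM in Rag-KO + anti-CD3, against 826, 775 and 1185 RPKM in WT spleen and 839, 734 and 506 RPKM in WT lung (a log2 fold change of -0.23, standard error 0.26, adjusted p = 0.706). The Rag-KO + anti-CD3 values lay inside the peripheral range. Siglecf, a lectin used to sort the cells, was at 455 and 373 RPKM in Rag-KO + anti-CD3, against 254, 288 and 73.4 RPKM in WT spleen and 217, 211 and 216 RPKM in WT lung (adjusted p = 0.256). Il5ra, the interleukin-5 receptor chain, was at 90.6 and 83.8 RPKM in Rag-KO + anti-CD3 and 7.98 to 72.2 RPKM in the 6 peripheral libraries (adjusted p = 0.527). Among granule genes, Prg2 (major basic protein) was at 477 and 345 RPKM in Rag-KO + anti-CD3, against 41.6, 32.9 and 206 RPKM in WT spleen and 50.8, 45.2 and 36.8 RPKM in WT lung. It stood above all 6 peripheral libraries with a log2 fold change of 2.89 that missed the threshold (standard error 0.89, adjusted p = 0.141). Ear1, an eosinophil ribonuclease, had the opposite values, at 2.34 and 0.719 RPKM in Rag-KO + anti-CD3, against 34.2, 36.2 and 111 RPKM in WT spleen and 74.2, 30.7 and 59 RPKM in WT lung (a log2 fold change of -4.45, standard error 1.05, adjusted p = 0.0514). The related Ear2 was at 4.23 and 9.74 RPKM and 24 to 178 RPKM in the same order, and Prg3 at 0.401 and 1.11 RPKM and 3.32 to 32.3 RPKM (adjusted p = 0.202 and 0.355). Ear genes are near-identical copies, so reads may be split between them. Epx, eosinophil peroxidase, was low, at 2.69 and 2.6 RPKM in Rag-KO + anti-CD3 and 0.078 to 1.08 RPKM in the peripheral libraries.

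Of the type 2 cytokines, Il4 fell. It was at 25.3 and 24.8 RPKM in Rag-KO + anti-CD3, against 46.1, 58.8 and 74.7 RPKM in WT spleen and 49.7, 79.6 and 56.3 RPKM in WT lung (a log2 fold change of -1.22, standard error 0.28, adjusted p = 0.0463). The groups did not overlap, but the call was lost, among other settings, without any of WT spleen 2, WT lung 1, WT lung 2 and WT lung 3, and under upper-quartile scaling. Il5 was at 0 in all 8 libraries, and Il13 was at most 0.436 RPKM and was not tested. Hbegf, an epidermal growth factor family ligand, and Il27, a cytokine subunit, rose, at 25.5 and 23.1 RPKM and 2.98 and 4.29 RPKM in Rag-KO + anti-CD3, against 3.99 to 9.47 RPKM and 0.206 to 1.48 RPKM. Of the 8 genes that the study names for thymic eosinophils, 3 rose here (Il1rn, Itgax and Cd34) and their median log2 fold change as a list was 2.92. In that list 7 were above all 6 peripheral libraries, against 17.4% of all genes tested. That list was chosen by the study on libraries of this series and is no independent evidence. Fth1, the ferritin heavy chain, and Hmgn2, a nucleosome-binding protein, were at 1727 and 1753 RPKM and 248 and 276 RPKM in Rag-KO + anti-CD3, against 667 to 1298 RPKM and 96.2 to 195 RPKM, and were not called (adjusted p = 0.183 and 0.0801). In the fit blocked by replicate Hmgn2 was called (adjusted p = 0.0323).

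Transcripts of thymocytes were found in the Rag-KO + anti-CD3 libraries. Of 9 immature thymocyte markers tested, 4 rose, and of 6 mature T cell markers tested, 4 rose, against 1.54% of all genes tested. Rag1, which Rag2-/- mice still carry, was at 1.38 and 1.62 RPKM (48 and 61 reads) in Rag-KO + anti-CD3, against 0 in all 6 peripheral libraries (adjusted p = 0.0306). The targeted Rag2 was at 0.222 and 0.0511 RPKM (4 and 1 reads) in Rag-KO + anti-CD3 and at 0 in the 6 peripheral libraries, so its level does not check the genotype. Cd8b1, a chain of the CD8 co-receptor, was at 6.67 and 9.21 RPKM (52 and 78 reads) in Rag-KO + anti-CD3, against at most 1 read in any peripheral library. WT thymus eosinophils held these transcripts too, with 118, 67 and 33 reads of Rag1 and 83, 32 and 15 of Cd8b1. Thymic eosinophils of Rag-KO mice given hamster IgG had 6 and 1 reads of Rag1 and 1 and 0 of Cd8b1. Dntt, the terminal transferase of receptor rearrangement, was at 4.11 and 2.3 RPKM in Rag-KO + anti-CD3 and 0 in the peripheral libraries. Tcf7, Lck, Cd3e and Lat, which act in T cell development and receptor signalling, averaged 5.88 ± 0.685, 3.92 ± 0.952, 2.37 ± 0.139 and 2.59 ± 1.08 RPKM in Rag-KO + anti-CD3, against 0.357 ± 0.298, 0.254 ± 0.216, 0.0189 ± 0.0464 and 0.254 ± 0.42 RPKM in the peripheral libraries. The immature thymocyte markers summed to 41.7 to 46.2 RPKM in Rag-KO + anti-CD3, 4.25 to 29.3 RPKM in WT spleen and 10.4 to 15.8 RPKM in WT lung. The mature T cell markers summed to 13.2 to 17.3, 1.54 to 4.15 and 1.02 to 1.79 RPKM in the same order. In both Rag-KO + anti-CD3 libraries 1 of the 17 immature and 3 of the 16 mature markers were at 0. The study's flow cytometry gated eosinophils as Thy1- MHC-II- cells. In such bulk samples, more cells of a type and more RNA per cell cannot be told apart, and the part of thymocyte RNA in the other genes was not tested.

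The sums of the markers of other cell types were higher in Rag-KO + anti-CD3 for some types and lower for others. Progenitor markers summed to 163 to 188 RPKM in Rag-KO + anti-CD3, 40.2 to 139 RPKM in WT spleen and 27.9 to 49.97 RPKM in WT lung, above all 6 peripheral libraries. Most of this sum in Rag-KO + anti-CD3 was Cd34. Of the 7 progenitor markers tested only 1 had a positive change, and their median log2 fold change was -1.11. Dendritic cell markers summed to 684 to 712, 593 to 801 and 508 to 1082 RPKM in the same order, and their median log2 fold change was 1.04. Thymic epithelial markers summed to 30.2 to 41.0, 8.66 to 39.8 and 34.2 to 40.2 RPKM (median 0.84). Above all 6 peripheral libraries were 4 of the 7 tested, against 17.4% of all genes tested. The part of these markers in the results was not tested. B and plasma cell markers summed to 5.17 to 9.34 RPKM in Rag-KO + anti-CD3, 54.6 to 67.2 RPKM in WT spleen and 5.31 to 11.7 RPKM in WT lung, and 7 of the 15 were at 0 in Rag-KO + anti-CD3. Lung epithelial markers summed to 0.376 to 0.817, 0.219 to 8.44 and 49.8 to 152 RPKM in the same order, with 11 of 13 at 0 in Rag-KO + anti-CD3. Some genes called lower were near 0 in spleen as well. Foxf1, a transcription factor of lung mesenchyme and endothelium, was at 0 in both Rag-KO + anti-CD3 libraries, against 0, 0.0688 and 0 RPKM in WT spleen and 5.16, 3.85 and 3.6 RPKM in WT lung. Cav1 and Cavin2, of caveolae, and Esam, an endothelial adhesion molecule, were at 0 in Rag-KO + anti-CD3, at most 1.04 RPKM in WT spleen and 1.95 to 22.1 RPKM in WT lung. The endothelial markers summed to 43.4 to 46.3 RPKM in Rag-KO + anti-CD3, 1.62 to 22.0 RPKM in WT spleen and 37.3 to 64.3 RPKM in WT lung, and none of the 11 tested was called. Only 1 of the 11 had a positive change, and their median was -0.80 (-1.61 against lung and 0 against spleen). Of the 14 endothelial markers 7 were at 0 in Rag-KO + anti-CD3. Foxf1, Cav1, Cavin2 and Esam met the rule through lung, and none passed the test against spleen alone.

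Retnla, a resistin-like protein induced by interleukin-4 and interleukin-13, was at 560.2 and 475 RPKM in Rag-KO + anti-CD3, against 75.4, 76.5 and 127 RPKM in WT spleen and 94.8, 40.8 and 95 RPKM in WT lung (a log2 fold change of 2.67, standard error 0.34, adjusted p = 0.00232). It was also higher than in WT thymus, at 17.2, 16.8 and 21 RPKM (log2 fold change 4.75, adjusted p = 0.000295), and the Rag-KO + control libraries were at 2160.2 and 1966 RPKM (adjusted p = 0.121 for the difference). Rag-KO + control (n = 2) is thymus after hamster IgG in place of anti-CD3, with 1 library of Rag2-/- and 1 of Rag1-/- genotype. Ccl8, a monocyte chemokine, was at 9.3 and 4.8 RPKM (25 and 14 reads) in Rag-KO + anti-CD3 and 0 in all 6 peripheral libraries (adjusted p = 0.000626). Mgl2 and Cd209f, C-type lectins, averaged 2.65 ± 1.11 and 2.09 ± 1.37 RPKM in Rag-KO + anti-CD3, against 0.0605 ± 0.148 and 0.101 ± 0.248 RPKM in the peripheral libraries, where they were found in 1 library each. H2-Eb1, an MHC class II chain, was at 15.7 and 29.3 RPKM in Rag-KO + anti-CD3, against 12.6, 7.67 and 4.79 RPKM in WT spleen and 1.45, 0.406 and 3.68 RPKM in WT lung (adjusted p = 0.0282). It was the only called gene of 19 MHC genes tested, against 1.54% of all genes called higher. Ccl8, Mgl2 and Cd209f lie outside the rule for named genes and were chosen after their values were seen. The monocyte and macrophage markers summed to 712 to 799 RPKM in Rag-KO + anti-CD3, 815 to 1252 RPKM in WT spleen and 704 to 1328 RPKM in WT lung. None of the 16 tested was called. At an unadjusted p under 0.05, with the same limits on fold change and direction, 1 was higher and 2 were lower. At these settings 413 of all 9451 genes tested were higher and 155 lower.

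Some of the genes described above were also set against the other thymic groups. For Cd34 and Itgax, Rag-KO + anti-CD3 averaged 167 and 195 RPKM, against 212 and 228 RPKM in WT thymus (n = 3), and the log2 fold changes of Rag-KO + anti-CD3 over WT thymus were -0.34 and -0.22, neither of which passed the test. Against Rag-KO + control, at 29.9 and 7.16 RPKM and 47.8 and 9.61 RPKM, they were 3.40 and 3.10 (adjusted p = 0.121 and 0.478). For S1pr1, Rag-KO + anti-CD3 was also lower than the Rag-KO + control libraries, which were at 9.12 and 14.2 RPKM (log2 fold change -2.78, adjusted p = 0.0294). Egr1 was lower in Rag-KO + anti-CD3 than in WT thymus, where it was at 408, 501 and 331 RPKM (log2 fold change -3.47, adjusted p = 0.0469). Retnlg, although lower than in the periphery, was higher than in WT thymus, at 433, 290 and 579 RPKM (log2 fold change 3.18, adjusted p = 0.00422). Ccl8 and Ccl9 were also higher than in WT thymus (log2 fold changes 2.37 and 3.34, adjusted p = 0.0265 and 0.0469). In Rag-KO + control, Ccl8 was at 3.95 and 6.51 RPKM and Ccl9 at 485 and 604 RPKM. These comparisons share the Rag-KO + anti-CD3 libraries with those above.

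Tfrc and Cd34 are also the only called members of the erythroid markers (6 tested) and progenitor markers (7 tested). Several lists held no called member in limma. They were counted again at an unadjusted p under 0.05, with the same limits on fold change and direction. At these settings 413 of all 9451 genes tested were higher and 155 lower. Higher were 3 of 5 dendritic cell markers, 2 of 7 NADPH oxidase genes and 1 each of 7 thymic epithelial markers, 7 fibroblast markers and 12 co-stimulation genes. Lower were 1 each of 8 Fc receptors, 11 endothelial markers, 8 B and plasma cell markers and 5 lung epithelial markers. There were 0 among 7 NK cell and ILC markers, 5 platelet markers, 12 Toll-like receptor genes and 16 heat shock genes. Among 26 cytosolic ribosomal protein genes none was called, and their median log2 fold change was -0.45 (-0.74 against spleen and -0.20 against lung), below the 0.20 of all genes. The 25 nuclear-encoded oxidative phosphorylation genes had a median of -0.13, the 24 interferon-stimulated genes 0.12 and the 19 glycolysis genes 0.59, with none called. At the unadjusted p and limits above, there were 0 higher and 2 lower for ribosomal proteins and 2 higher and 0 lower for glycolysis. For oxidative phosphorylation and for interferon-stimulated genes there were 0 higher and 0 lower. Of 23 cell cycle and replication genes, 2 rose, Mcm2 and Rrm1, which act in DNA replication and nucleotide supply. The called shares of all genes were 1.54% higher and 0.571% lower. Mcm2 was at 4.76 and 6.04 RPKM in Rag-KO + anti-CD3 and 0.408 to 3.38 RPKM in the peripheral libraries (adjusted p = 0.0498, and not called in the fit blocked by replicate, adjusted p = 0.0649), and Rrm1 at 7.51 and 6.61 RPKM and 1.39 to 4.03 RPKM (adjusted p = 0.0161). Tfrc, the transferrin receptor, and Slc7a11 were the called genes of 15 in iron handling, with Tfrc at 19.7 and 9.61 RPKM in Rag-KO + anti-CD3 and 1.08 to 7.2 RPKM in the peripheral libraries. The neutrophil granule and alarmin list was the only one with 2 members lower, Retnlg and Anxa1, of 20 tested, and its median was -1.32. Trib1, a regulator of C/EBP proteins needed for eosinophil identity in mice, was the only called gene of 21 lineage factors, at 54 and 55.9 RPKM in Rag-KO + anti-CD3, against 7.12, 9.97 and 4.94 RPKM in WT spleen and 16, 16.3 and 47.2 RPKM in WT lung.

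**Figure D5:**
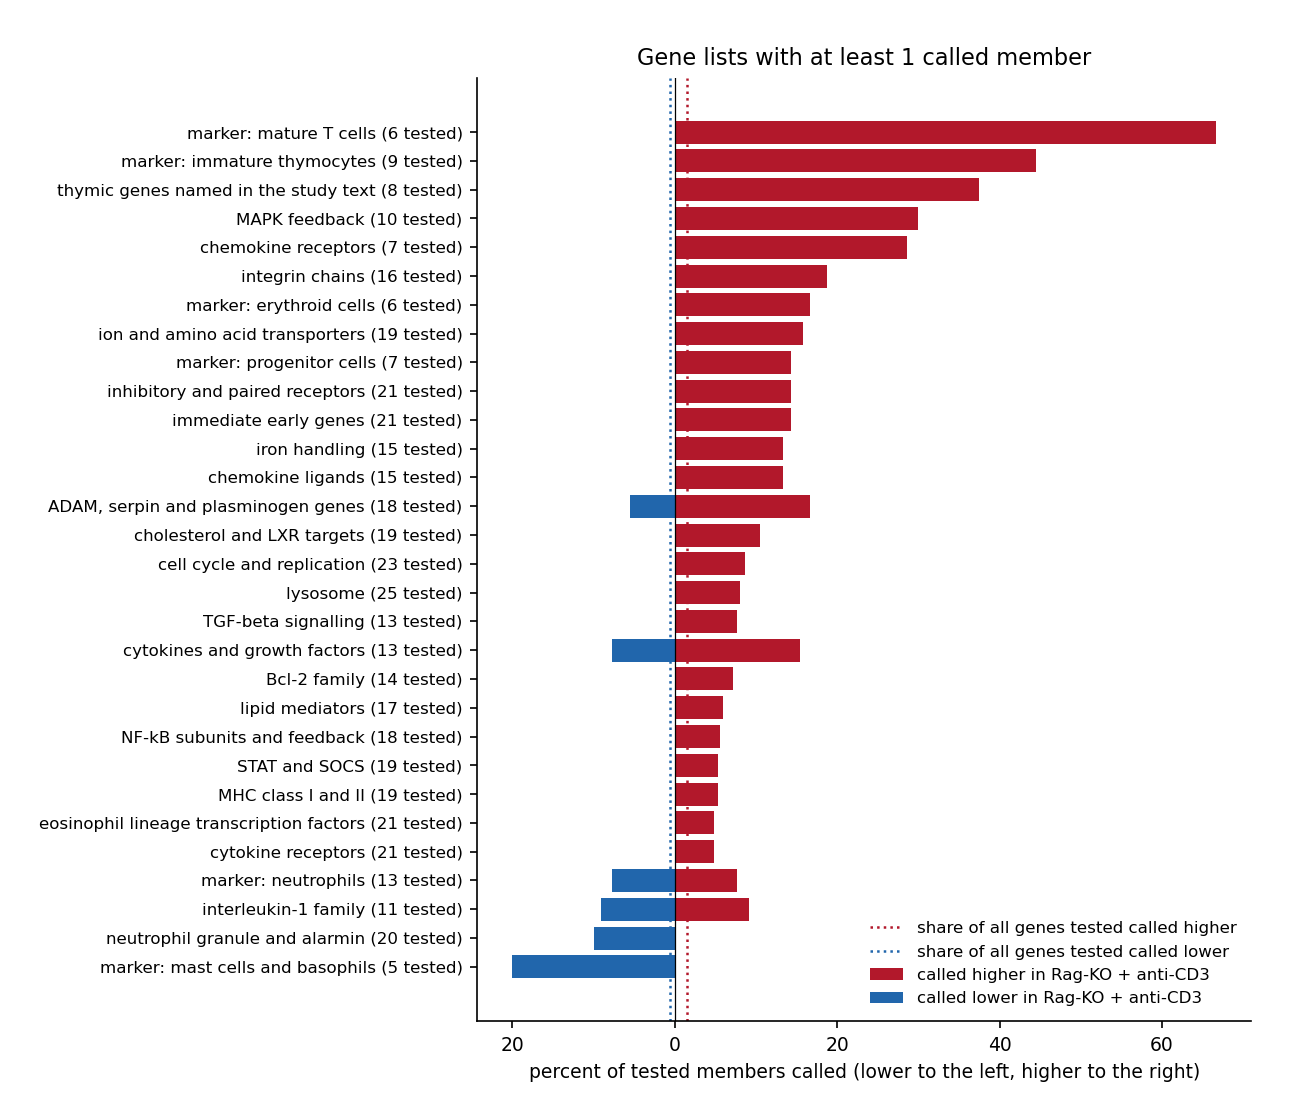
Percent of the tested members of each gene list that were called higher (red, to the right) or lower (blue, to the left) in Rag-KO + anti-CD3 than in peripheral eosinophils, for lists with at least 1 called member and at least 5 tested. Dotted lines mark the shares of all genes tested, 1.54% higher and 0.571% lower. Lists of T cell and thymocyte markers have the highest shares, and short lists give coarse percentages.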

How the data were processed

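The 13 libraries hold RNA of sorted CD11b+ Siglec-F+ eosinophils, and 8 of them are compared here. The authors made SMART-seq libraries, sequenced them on an Ion Proton and computed RPKM in CLC Genomics Workbench against mm10, and the deposited table gives 1 RPKM column per library. The mapping settings and annotation release are not given in the sources used here. RPKM is scaled to the library total only, so 1 abundant transcript can shift the others. Library totals were recovered from the low RPKM steps (5888 genes whole to within 0.001 of a read in every library) and were used for depth and read numbers alone.

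Testing was limited to genes reaching an RPKM of 1 in 2 or more of the 13 libraries. Values entered limma (version 3.58.1, R version 4.3.3) as log2(RPKM + 1), and the prior followed the mean intensity, in 1 fit of 5 groups with 8 residual degrees of freedom. The contrast was Rag-KO + anti-CD3 against the mean of WT spleen and WT lung, two-sided, with Benjamini-Hochberg adjustment over 9763 genes. A call needed an adjusted p under 0.05, a log2 fold change above 1 in size and the same sign against each organ. Chromosomes were looked up by gene identifier, with 41675 genes matched and 68 not. The fit was also run on simulated data. These were independent normal values without organ differences or outlying libraries, so the run does not show how accurate the fit is here. Values with ± are mean and SD (n = 2 for Rag-KO + anti-CD3, n = 6 for the peripheral libraries).

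Genes were named by rule: those the study names, the targeted genes, up to 15 called genes per direction ranked by the smaller of the changes against spleen and lung, without overlap and with at least 10 RPKM in the higher group, and up to 4 abundant and 4 called members of each list. A gene that the rule names is not reported here. Some others were added after their values were seen (Ccl8, Mgl2, Cd209f, Fos and Egr1 among them). The members and gene lists were chosen with earlier results of these data known. Alternatives covered the pseudocount, filter, scaling, trend, libraries, call rule, block, an assumed batch and test.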

Additional observations from a re-analysis of the deposited data

Results flagged for a closer look

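Among 109 genes examined over the 6 peripheral libraries, 27 had a library far from the others by Dixon's limit of 0.625. Chance flags about 1 in 20 groups of normal values, a rate that need not hold here, where 2 organs were pooled and RPKM values are skewed. For Cd3e, Cd209f and Mgl2 the other 5 libraries were at 0, so that any value above 0 met the limit. WT lung 3 was the high library for 13 of them. These were Il1b at 1251 RPKM, Cxcl2 at 745 RPKM, Tnfaip3 at 586 RPKM, Ccl3 at 155 RPKM, Serpinb2 at 131 RPKM, Ier3 at 113 RPKM, Bcl2a1d at 101 RPKM, Trib1 at 47.2 RPKM, Cish at 46.2 RPKM, Plk3 at 30.8 RPKM, Il10ra at 17.0 RPKM, Itgb5 at 5.96 RPKM and Cd209f at 0.608 RPKM. WT lung 3 was low for S1pr4, at 8.55 RPKM. WT spleen 3 was high for S100a8 at 18344 RPKM, S100a9 at 3614 RPKM, Prg2 at 206 RPKM, Hmgn2 at 195 RPKM, Prg3 at 32.3 RPKM and Mgl2 at 0.363 RPKM, and low for Siglecf at 73.4 RPKM. WT spleen 1 was high for Cd34 at 20.7 RPKM, Scd2 at 7.70 RPKM, Slc24a3 at 2.66 RPKM and Lat at 1.10 RPKM. Cd3e was high in WT spleen 2 at 0.114 RPKM, and Rgs1 in WT lung 2 at 48.2 RPKM.

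The change of Rag-KO + anti-CD3 differed between the organs in 17 named genes, by the test of WT lung over WT spleen within the limma fit (adjusted p under 0.05). On the log2 scale the difference of WT lung over WT spleen was 6.69 for Cxcl2, 6.49 for Egr1, 6.45 for Fos, 4.12 for Ccl3, 3.93 for Zfp36, 3.67 for Dusp1, 3.24 for Junb, 3.21 for Ier3, 2.78 for Jun and 2.77 for Rgs1, a regulator of G protein signalling. Egr1 and Fos were not among the genes called against the mean of the organs. The difference was 1.65 for Cxcr2. Among the genes that fell it was 3.21 for Cav1, 2.41 for Cavin2, 2.34 for Foxf1, 1.91 for Esam, 1.59 for Fmo1 and 1.44 for Acer2. In the fit blocked by replicate, chosen after seeing the data, all 17 differences still passed.

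The 4 Y-linked genes examined, outside the autosomal comparison, were present in both Rag-KO + anti-CD3 libraries. Their mean RPKM there was 21.4 for Eif2s3y, 15.8 for Ddx3y, 2.84 for Uty and 0.855 for Kdm5d, against at most 0.0409 in any peripheral library.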

How the results depend on the processing

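The comparison gave 146 genes higher and 54 lower, and 24 alternatives were run. Counts moved by more than 1.5 times with a pseudocount of 5 (81 higher, 28 lower), with no filter (82 higher), in the fit of the 8 libraries alone (64 and 22), when each organ had to pass on its own (61 and 24), with an unadjusted p (413 and 155), with replicates 1 and 2 of the WT organs only (354 and 214), with a batch term (92 lower), and in an analysis of variance with Dunnett comparisons on RPKM (321 and 33). Quantile normalization gave 106 lower (128 higher) and upper-quartile scaling 84 lower (123 higher), so the share of calls that were higher moved by over 10 percentage points. The cause was not tested. Leaving out 1 library gave 3 to 233 genes higher and 3 to 113 lower, lowest without Rag-KO + anti-CD3 1 and highest without WT spleen 3. The replicate numbers do not pair the Rag-KO + anti-CD3 libraries with the others (correlations of deviations from -0.058 to 0.045 for equal numbers). WT spleen and WT lung of equal number correlated at 0.299, 0.387 and 0.418, but numbers 1 and 2 also did so when crossed (0.258 and 0.281). The replicate block gave 164 higher and 74 lower, ended the calls of Acer2 (adjusted p = 0.0581) and Mcm2 (0.0649) and added Bcl2a1d (0.00388) and Hmgn2 (0.0323) in limma. No called gene among the named ones reversed direction, while the uncalled Egr1 ran from -0.12 to 0.70. Of 86 called genes, 81 lost the call under at least 1 alternative. Arl13b, Ccl8, Cd101, Serpinb1a and Slc24a3 kept it under each one run on single genes. Of the 23 alternatives run on these genes, Emb lost its call under 14, Jun and Dusp16 under 13 each and Cxcr2 and Tfrc under 11 each. Bcl2a1a lost it under 10 and Enkur under 9. The calls rest on both Rag-KO + anti-CD3 libraries. Of the 146 and 54 genes, 3 and 3 kept the call without Rag-KO + anti-CD3 1, and 17 and 4 without Rag-KO + anti-CD3 2. Cd34, Il1rn, Retnla and B3gnt7 lost it without Rag-KO + anti-CD3 1 (adjusted p = 0.110 to 0.118).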
